A study of Mus musculus with 5 samples.

Results

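The Hlf-high cells were the 759 cells of a mouse LMPP library that held the most Hlf and Mecom transcripts. They were taken from the 3035 LMPP cells in which neither Dntt, the lymphoid terminal transferase, nor Mki67, a marker of cycling cells, was detected. LMPP cells that passed the filters on cells numbered 8033, and such cells over all 5 libraries numbered 42104. A cell passed with at least 500 genes, at least 1000 UMIs (unique molecular identifiers, each marking 1 captured transcript) and at most 10% of UMIs in mitochondrial genes. The score of a cell was its summed Hlf and Mecom UMIs per 10000 UMIs, and the Hlf-high cells were chosen by it as the highest 25%. They were set against the Hlf-low cells, the 760 cells in the lowest 25% of the same score.

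The study sequenced single cells of 3 sorted progenitor populations from bone marrow of wild-type Balb/C mice aged 8 to 12 weeks. Marrow was first enriched for c-Kit-bearing cells with beads. The LMPP (lymphoid-primed multipotent progenitor) library was sorted as Lin-, c-Kit+, Sca-1+, CD34+ and Flt3+. The CMP (common myeloid progenitor) library was sorted as Lin-, c-Kit+, Sca-1-, CD34+ with low CD16/32, and the 3 GMP (granulocyte-monocyte progenitor) libraries with high CD16/32. The labels give 1 LMPP library and 1 CMP library, and the number of mice behind each is not given in the sources used here. Flt3 surface protein was required by the LMPP gate, which by common definition leaves out most long-term repopulating stem cells.

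Hlf encodes a transcription factor of the PAR bZIP family, and Mecom encodes the zinc finger factor Evi1. Both are known from mouse work to mark blood stem cells and to fall away as cells commit to a lineage. Meis1 is a homeobox cofactor of Hox proteins, and Procr encodes the endothelial protein C receptor, used to purify stem cells of adult marrow. In the usual scheme, multipotent progenitors keep part of the stem cell programme while they take up lymphoid or myeloid genes.

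All members and all Hlf-low cells came from 1 library, and cells of 1 library are not replicates, so no test of the difference was possible. UMIs were summed over the cells of each group and scaled to CPM by the group's total. Differences are log2 ratios of Hlf-high over Hlf-low cells with 1 CPM added to each side. The ranges in brackets are exact 95% intervals of the plain UMI ratio, and they cover counting error only. A gene is called higher or lower when it passed 1.5-fold (0.58 on the log2 scale) and averaged at least 10 CPM over both groups. Every LMPP difference below comes from the contrast that chose the cells and is given as a description.

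The members summed to 5326131 UMIs and the Hlf-low cells to 6102675 UMIs. The median member held 6252 UMIs and 2400 genes, and the median Hlf-low cell held 6649 UMIs and 2196 genes. Mitochondrial genes took a median of 1.51% of UMIs in members and 1.5% in Hlf-low cells. A simulated-doublet caller marked 16 members and 7 Hlf-low cells. Barcodes that also occurred in another library numbered 8 among members and 10 among Hlf-low cells. The results were about the same without the marked doublets or the shared barcodes, as given in the closing section.

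The score of the members ranged from 12.741 to 43.2 UMIs per 10000, with a median of 16.3. The highest cell just outside the group scored 12.725. Hlf-low cells had a median score of 1.95 and a highest score of 4.25, and the next cell above them scored 4.26. Hlf, which chose the cells, stood at 1460 CPM in members and 146 CPM in Hlf-low cells. Mecom stood at 257 CPM in members and 37.7 CPM in Hlf-low cells. Every member held an Hlf UMI, with a median of 9, and 595 members (78.4%) held both Hlf and Mecom. Among Hlf-low cells 125 (16.4%) held both and 212 held neither, so the Hlf-low group was not free of Hlf.

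Over the 8283 genes compared, 1885 (22.8%) were higher in Hlf-high cells and 453 (5.47%) were lower. Past 2-fold, 359 (4.33%) were higher and 134 (1.62%) were lower. The median difference over all these genes was 0.26, so the typical gene stood slightly higher in members. After that median was subtracted from every gene, 758 genes (9.15%) were higher and 1000 (12.1%) were lower. The split between higher and lower genes thus turned with the scaling, and every count of higher genes below is to be read beside the 22.8% and 9.15% of all genes.

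Both markers that the rule did not use were higher in the members. Meis1 stood at 342 CPM in members and 170 CPM in Hlf-low cells, a difference of 1.002 (0.90 to 1.12). Procr stood at 84.9 CPM in members and 24.9 CPM in Hlf-low cells, a difference of 1.73 (1.5 to 2.04). Some classical markers of primitive stem cells, picked from the surface gene list given below, had few UMIs in both groups. On that list 13 of 17 compared genes were higher in members and 0 were lower. Slamf1, which encodes the CD150 antigen, had 12 UMIs in all members and 25 UMIs in all Hlf-low cells. Vwf, a platelet adhesion gene used to mark platelet-biased stem cells, had 12 UMIs in members and 21 UMIs in Hlf-low cells. Tek, an angiopoietin receptor, had 17 UMIs in members and 8 UMIs in Hlf-low cells. These picked markers were all under the 10 CPM minimum and were not called, and Tek had more UMIs in members than in Hlf-low cells.

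Of the antigens used to sort the cells, Flt3 was higher in the members. Flt3 encodes a cytokine receptor of multipotent and lymphoid progenitors and stood at 157 CPM in members and 85.2 CPM in Hlf-low cells, a difference of 0.87 (0.72 to 1.04). The Sca-1 gene Ly6a differed by 0.66 (0.32 to 1.07), with 27.8 CPM in members and 17.2 CPM in Hlf-low cells. After centring on the median, Flt3 at 0.62 passed 1.5-fold and Ly6a at 0.41 did not. Kit, the stem cell factor receptor, differed by 0.51 and Cd34 by 0.32, and neither passed 1.5-fold. The Fc receptor genes Fcgr3 and Fcgr2b, whose products are the CD16/32 antigens of the myeloid gates, had 4 and 20 UMIs in members against 63 and 81 UMIs in Hlf-low cells. Both were under the 10 CPM minimum and were not called.

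Members of the Hlf family itself had low levels apart from Hlf. Dbp, a clock-controlled PAR bZIP factor, stood at 16.1 CPM in members and 8.36 CPM in Hlf-low cells, a difference of 0.87 (0.43 to 1.48). Tef, the other close relative of Hlf, stood at 21.6 CPM in members and 15.4 CPM in Hlf-low cells and did not pass 1.5-fold. Nfil3, a repressor that binds the same sites, had 14 UMIs in members and 13 UMIs in Hlf-low cells.

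Among 24 stem cell transcription factors, 20 could be compared, of which 15 were higher in members and 0 were lower, with a median difference of 0.88. Mllt3, an elongation cofactor that keeps human stem cells in culture, stood at 177 CPM in members and 50.8 CPM in Hlf-low cells, a difference of 1.78 (1.62 to 1.99). Nkx2-3, a homeobox factor, stood at 119 CPM in members and 34.7 CPM in Hlf-low cells, a difference of 1.75 (1.55 to 2.01). Lmo2, an adaptor of the SCL complex, stood at 769 CPM in members and 347 CPM in Hlf-low cells, a difference of 1.15. Msi2, an RNA-binding protein that regulates stem cells, stood at 600 CPM in members and 264 CPM in Hlf-low cells, a difference of 1.18. The 5 compared factors that did not pass 1.5-fold were Runx1 at 0.48, Tal1 at 0.48, Lyl1 at 0.50, Fli1 at 0.47 and Hmga2 at 0.00, named after their values were seen. With the median subtracted, 11 of the 20 passed and none was lower.

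The list of Hox, Pbx and Meis genes had 24 members, of which 10 could be compared, 9 were higher and 0 were lower. Hoxa9, which pairs with Meis1 on DNA, stood at 291 CPM in members and 159 CPM in Hlf-low cells, a difference of 0.87 (0.75 to 0.99). Hoxa5 stood at 29.9 CPM in members and 12.9 CPM in Hlf-low cells, a difference of 1.15 (0.81 to 1.61). Hoxa3 stood at 16.1 CPM in members and 5.74 CPM in Hlf-low cells, a difference of 1.35 (0.91 to 2.10). The list shares Meis1 and several Hox and Pbx genes with the list before it. The other 14 genes of the list were below the minimum, and 5 of them had no UMI in either group. With the median subtracted, 6 of the 10 passed 1.5-fold.

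Among 24 stem cell surface and signalling genes, 17 could be compared, of which 13 were higher and 0 were lower, with a median difference of 1.05. Fgd5, a guanine nucleotide exchange factor used as a stem cell reporter in mice, stood at 18.0 CPM in members and 5.57 CPM in Hlf-low cells, a difference of 1.53 (1.12 to 2.30). Ifitm1, an interferon-induced membrane protein, stood at 1792 CPM in members and 1036 CPM in Hlf-low cells, a difference of 0.79. Ifitm3 differed by 0.48 and did not pass. Among other genes of the list, picked after their values were seen, Pdzk1ip1 differed by 1.48, Trpc6 by 1.53, Ltb by 1.39 and Angpt1 by 1.05. The 2 stem cell lists together had 28 genes higher and 0 lower.

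**Figure D1:**
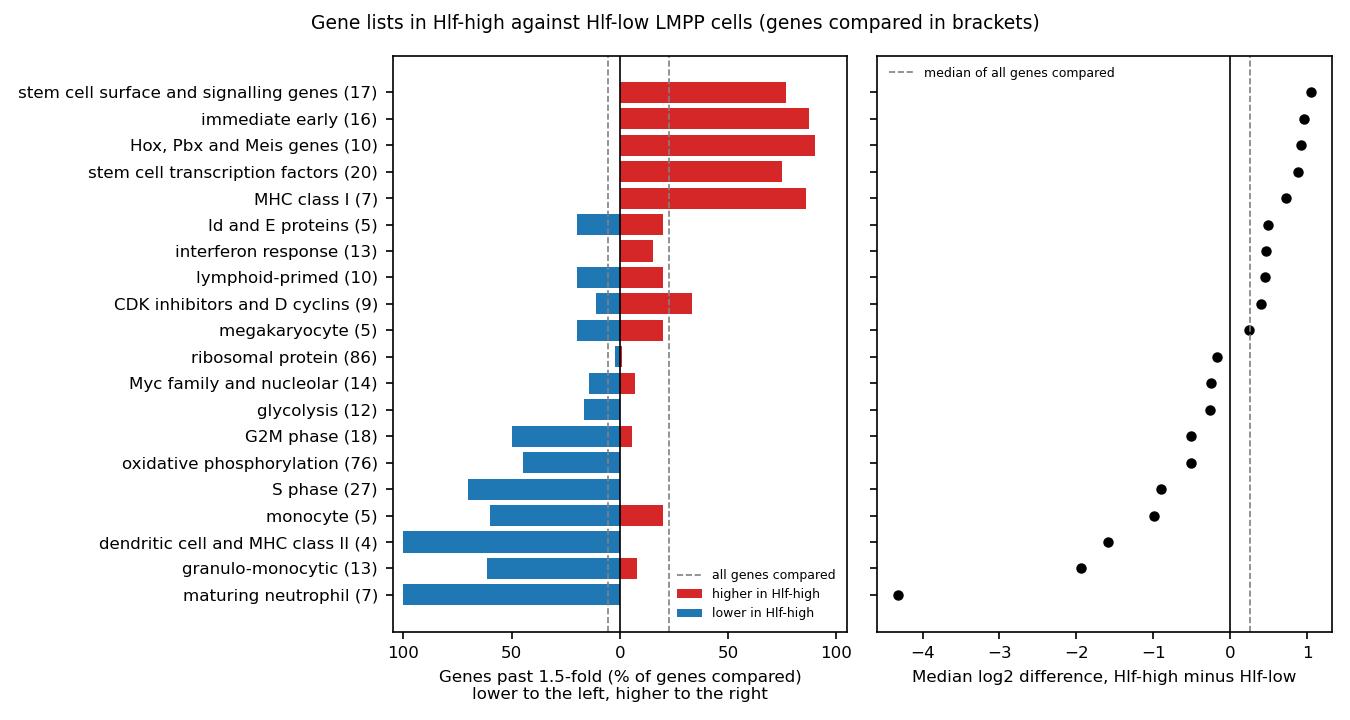
Gene lists with at least 4 genes compared, with the list of sorted antigens left out. The left panel gives the percent of compared genes past 1.5-fold, with higher in Hlf-high cells to the right and lower to the left, and dashed lines at the 22.8% and 5.47% of all genes. The right panel gives each list's median log2 difference beside the median of all genes (0.26, dashed), with the stem cell, immediate early and MHC class I lists at the top and the neutrophil list at -4.32 at the bottom.

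The 12 genes with the largest positive differences among well-detected genes (50 CPM or more on average) included Itsn1, Mllt3, Nkx2-3, Procr, Mettl7a1, Myl10, Klf9, Klf4, Lncpint, Gimap6 and Pcp4l1. Itsn1, an endocytic scaffold protein, led them with 102 CPM in members and 23.8 CPM in Hlf-low cells, a difference of 2.05 (1.83 to 2.37). Klf4, a Krüppel-like factor of reprogramming and of monocytes, stood at 268 CPM in members and 89.1 CPM in Hlf-low cells, a difference of 1.58 (1.45 to 1.73). Klf9, a glucocorticoid-responsive factor of the same family, stood at 117 CPM in members and 37.4 CPM in Hlf-low cells, a difference of 1.62. Gimap6, a GTPase of lymphoid cells, stood at 135 CPM in members and 45.4 CPM in Hlf-low cells, a difference of 1.55. The 12 differences ran from 1.53 to 2.05. Reads of Mettl7a1 could be shared with a close copy of the gene, so its level is less certain.

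The UMIs of these 12 genes were spread over many members. The 76 members richest in each gene held 38.6% (Mettl7a1) to 48.4% (Myl10) of the members' UMIs of that gene. Procr was seen in 39.1% of members and 16.6% of Hlf-low cells, Mllt3 in 57.4% of members and 27.8% of Hlf-low cells, and Nkx2-3 in 45.2% of members and 20% of Hlf-low cells.

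Promoters of these genes were read because the members differed in the levels of PAR bZIP, AP-1 and Meis factors, whose binding letters are known. RefSeq lists a promoter (250 bases before to 50 bases after the start, GRCm38.p6) for 11 of the 12 highest genes and for 11 of the 12 lowest genes described below. The PAR bZIP letters TTACGTAA, its own reverse complement, were in 0.107% of all 27025 promoters and in none of either set. The related letters TTATGTAA or TTACATAA were in 0.955% of all promoters and in none of either set. The AP-1 letters TGACTCA or TGAGTCA were in 5.17% of all promoters and, in these sets, only in that of Procr, 154 bases before the start. The MEIS letters TGACAG or CTGTCA were in 19.3% of all promoters, in that of Pcp4l1 among the highest genes and in those of Ctsg and S100a9 among the lowest. Both sets came from the genes compared, and over the 6448 promoters of those genes the shares differed. In the same order they were 0.171%, 0.481%, 2.93% and 15.9%. The matches in the sequences shown do not overlap. The promoters of Procr (chr2:155750967-155751266, plus strand) and of Pcp4l1 (chr1:171196219-171196518, minus strand) are shown because they alone among the highest genes held a match, which stands in capitals.
Procr: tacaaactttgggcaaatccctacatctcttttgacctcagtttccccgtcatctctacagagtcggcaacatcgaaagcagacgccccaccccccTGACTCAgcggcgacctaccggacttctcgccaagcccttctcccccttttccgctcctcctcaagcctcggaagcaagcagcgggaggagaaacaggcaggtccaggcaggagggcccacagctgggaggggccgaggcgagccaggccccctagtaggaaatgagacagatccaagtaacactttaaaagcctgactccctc
Pcp4l1: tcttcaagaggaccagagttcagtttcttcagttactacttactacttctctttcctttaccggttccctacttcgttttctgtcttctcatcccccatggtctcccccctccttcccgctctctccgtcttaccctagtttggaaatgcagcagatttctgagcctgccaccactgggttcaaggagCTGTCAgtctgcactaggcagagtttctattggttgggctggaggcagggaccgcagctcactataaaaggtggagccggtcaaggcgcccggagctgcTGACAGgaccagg
A match of letters is a description and is not a binding site shown by these data.

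Immediate early genes, which respond quickly to growth factors and stress, were higher in the members, with 14 of 16 compared genes higher and 0 lower and a median difference of 0.96. Fos, a subunit of the AP-1 factor, stood at 4409 CPM in members and 1969 CPM in Hlf-low cells, a difference of 1.16 (1.13 to 1.19). Jun, its partner, stood at 5315 CPM in members and 2858 CPM in Hlf-low cells, a difference of 0.90. Egr1, a zinc finger factor that restrains stem cell division, stood at 1372 CPM in members and 602 CPM in Hlf-low cells, a difference of 1.19. The list summed to 21439 CPM in members and 10926 CPM in Hlf-low cells, so these genes took 2.14% and 1.09% of all UMIs. The heat shock genes Hspa1a and Hspa1b had 5 and 0 UMIs in members against 10 UMIs each in Hlf-low cells. With the median subtracted, 12 of the 16 passed.

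MHC class I genes, which present peptides to T cells, were also higher, with 6 of 7 compared genes past 1.5-fold and 0 lower. H2-K1 stood at 1073 CPM in members and 624 CPM in Hlf-low cells, a difference of 0.78 (0.72 to 0.84). H2-D1 stood at 982 CPM in members and 532 CPM in Hlf-low cells, a difference of 0.88 (0.82 to 0.95). H2-T23, a non-classical class I gene, stood at 120 CPM in members and 61.8 CPM in Hlf-low cells, a difference of 0.95. B2m, the shared light chain, differed by 0.43 and was the gene that did not pass. The class I genes resemble each other in sequence, so reads could move between them, and with the median subtracted only 2 of the 7 passed. Of 13 compared interferon response genes 2 were higher and 0 were lower, namely Ifitm1 and Irf1, and none passed once the median was subtracted. Irf1, a factor that interferon induces, stood at 58.2 CPM in members and 34.9 CPM in Hlf-low cells, a difference of 0.72.

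Genes of DNA replication were lower in the members, although both groups had been chosen to lack Mki67. Of 27 compared S phase genes 19 were lower and 0 higher, with a median difference of -0.90. Rrm2, the small subunit of ribonucleotide reductase, stood at 6.95 CPM in members and 24.4 CPM in Hlf-low cells, a difference of -1.68 (-2.37 to -1.29). Ung, a uracil glycosylase, stood at 12.2 CPM in members and 39.7 CPM in Hlf-low cells, a difference of -1.62. Mcm6, a subunit of the replicative helicase, stood at 94.4 CPM in members and 166 CPM in Hlf-low cells, a difference of -0.81. The list summed to 0.117% of UMIs in members and 0.210% in Hlf-low cells. For scale, it took 0.267% of UMIs over all LMPP cells. With Mecom alone as the score, 5 of the 27 genes were lower and 0 higher, with a median difference of -0.27. Over all 8314 genes compared with that score, 140 (1.68%) were lower and 722 (8.68%) higher, with a median difference of 0.18.

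Genes of G2 phase and mitosis were mixed, with 9 of 18 compared genes lower and 1 higher. Top2a, a topoisomerase of mitotic chromosomes, stood at 62.7 CPM in members and 102 CPM in Hlf-low cells, a difference of -0.69. Cdca3 stood at 5.44 CPM in members and 15.9 CPM in Hlf-low cells, a difference of -1.39 (-2.20 to -0.93). Kif23, a kinesin of cytokinesis, went the other way with 55.0 CPM in members and 25.7 CPM in Hlf-low cells, a difference of 1.07 (0.81 to 1.39). The list took 0.0566% of UMIs in members and 0.0737% in Hlf-low cells, both far under the 0.293% over all LMPP cells, where Mki67-bearing cells were included. With Mecom alone as the score, 0 of the 18 genes were lower and 0 higher, beside 1.68% lower and 8.68% higher over all genes.

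Among regulators of the G1 phase, Cdkn1c was higher and Cdk6 lower in the members. Cdkn1c, a CDK inhibitor tied to stem cell quiescence in mice, stood at 37.4 CPM in members and 8.52 CPM in Hlf-low cells, a difference of 2.01 (1.69 to 2.602). Cdk6, a kinase that drives exit from quiescence, stood at 129 CPM in members and 258 CPM in Hlf-low cells, a difference of -0.99 (-1.13 to -0.87). Cdk4 stood at 226 CPM in members and 288 CPM in Hlf-low cells, and Ccnd2 at 314 CPM in members and 237 CPM in Hlf-low cells, and neither passed 1.5-fold. In the list of 12 CDK inhibitors, D cyclins and their kinases, 9 were compared, of which 3 were higher and 1, Cdk6, was lower, with a median difference of 0.40. With the median of all genes subtracted, 2 were higher and 2 lower, and Cdk4 at -0.60 was then the other lower gene. Besides Cdkn1c, the higher genes were Cdkn1b at 0.86 and Ccnd3 at 0.82, named after their values were seen.

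Genes of oxidative phosphorylation, encoded in the nucleus, were lower or about level. Of 76 compared genes 34 were lower and 0 higher, with a median difference of -0.51, and with the median of all genes subtracted 57 were lower. Cox5a, a subunit of cytochrome oxidase, stood at 278 CPM in members and 635 CPM in Hlf-low cells, a difference of -1.19 (-1.28 to -1.11). Atp5g1, a subunit of the ATP synthase rotor, stood at 241 CPM in members and 528 CPM in Hlf-low cells, a difference of -1.13. Ndufa4 stood at 757 CPM in members and 1507 CPM in Hlf-low cells, a difference of -0.99. The list took 1.71% of UMIs in members and 2.50% in Hlf-low cells. The mitochondrial transcripts themselves, given above as the median mitochondrial share, were about level. With Mecom alone as the score, 6 of the 76 nuclear genes were lower and 0 higher. Over all genes compared with that score 1.68% were lower and 8.68% higher.

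Glycolysis genes had 2 of 12 lower and 0 higher. Ldha, lactate dehydrogenase, stood at 232 CPM in members and 387 CPM in Hlf-low cells, a difference of -0.74, and Hk2, a hexokinase, differed by -0.60. Of 14 Myc family and nucleolar genes 1 was higher and 2 were lower. Mycn, a Myc paralogue of stem cells, stood at 23.3 CPM in members and 7.54 CPM in Hlf-low cells, a difference of 1.51 (1.13 to 2.15). Npm1, a nucleolar chaperone, stood at 1939 CPM in members and 2909 CPM in Hlf-low cells, a difference of -0.59, and Nhp2, a protein of small nucleolar particles, differed by -1.03. Of 86 ribosomal protein genes 1 was higher and 2 were lower, and they took 29.0% of UMIs in members and 32.8% in Hlf-low cells. The gene counted as higher there, Rps6ka3, is a kinase that the shared name prefix brought into the list. With the median of all genes subtracted, 13 of the 86 ribosomal, 6 of the 14 Myc family and nucleolar and 5 of the 12 glycolysis genes were lower.

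Lymphoid-primed genes were split, with 2 of 10 compared genes higher and 2 lower. Besides Flt3, Bcl11a, a factor that lymphoid fate needs, was higher at 256 CPM in members and 169 CPM in Hlf-low cells, a difference of 0.60, and it fell under 1.5-fold at 0.34 once the median was subtracted. Of the lower genes, Cd52, a small surface antigen of lymphocytes, stood at 74.5 CPM in members and 217 CPM in Hlf-low cells, a difference of -1.53. Both groups lacked Dntt by choice, so the lymphoid genes describe cells from which the Dntt-bearing ones had been removed. B cell genes were nearly at 0: of 9 only Cd79b could be compared, at 37.9 CPM in members and 32.8 CPM in Hlf-low cells, and its sign turned when the median was subtracted (0.20 and -0.05).

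Granulo-monocytic genes were lower, with 8 of 13 compared genes lower and 1 higher and a median difference of -1.94. Elane, neutrophil elastase, stood at 91.1 CPM in members and 2384 CPM in Hlf-low cells, a difference of -4.70 (-4.84 to -4.58). Mpo, myeloperoxidase, stood at 110 CPM in members and 879 CPM in Hlf-low cells, a difference of -2.99. Prtn3, a related granule protease, stood at 582 CPM in members and 2239 CPM in Hlf-low cells, a difference of -1.94. Of the Hlf-low Prtn3 UMIs 80.3% lay in 76 cells, and the median cell held 5.50 Prtn3 UMIs per 10000 among members and 5.06 among Hlf-low cells. Without the cells rich in another lineage's UMIs, described below, Prtn3 differed by -0.46, under 1.5-fold, and the list had 5 of 12 genes lower and 2 higher with a median of -0.28. Ms4a3, a membrane protein of granulocyte-monocyte progenitors, stood at 8.45 CPM in members and 264 CPM in Hlf-low cells, a difference of -4.81. The 1 higher gene was Gfi1, a repressor that restrains stem cell cycling, at 0.98, named after its value was seen. Prtn3 was seen in 92.2% of members and 89.6% of Hlf-low cells, and the list summed to 1063 CPM in members and 6752 CPM in Hlf-low cells.

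The 12 genes with the most negative differences among well-detected genes were Ms4a3, Elane, S100a9, Ngp, S100a8, Lcn2, Ctsg, Camp, Cd74, Mpo, Mt1 and Plac8, at -4.81 to -2.85. All but Cd74, Mt1 and Plac8 are known as genes of neutrophil granules, calprotectin or granulocyte precursors. For all but Mpo and Plac8, 91.5% to 100% of the Hlf-low UMIs lay in the 76 cells richest in the gene. That share was 77.7% for Mpo and 61.1% for Plac8, which were seen in 64.5% and 88.0% of Hlf-low cells. Of the Elane UMIs in the Hlf-low group 97.3% lay in the 76 cells richest in Elane, and for Cd74, the invariant chain of MHC class II, 99.7% lay in its own richest 76 cells. A gene seen in few cells gives a high share by itself, and Cd74 was seen in 10.9% and Lcn2 in 7.37% of Hlf-low cells. In members the shares of the 12 genes ran from 37.1% (S100a8) to 100% (Lcn2, Ms4a3 and Mt1), with Elane at 38.4% and Cd74 at 89.5%. The maturing neutrophil list reached 10 UMIs in 0 members and in 35 Hlf-low cells, and it summed to 241 CPM in members and 5125 CPM in Hlf-low cells. The MHC class II list reached 10 UMIs in 15 members and in 23 Hlf-low cells, and 50 UMIs in 0 members and in 21 Hlf-low cells. Ngp and Camp, which belong to late neutrophil maturation, still had 100 and 165 UMIs in members against 2678 and 3174 UMIs in Hlf-low cells.

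Cells rich in the UMIs of another lineage were therefore left out in a comparison added after the data were seen, which kept 736 members and 622 Hlf-low cells. A cell was left out with 10 or more UMIs of the maturing neutrophil or MHC class II list, or 3 or more of the basophil and mast cell, eosinophil, T and NK cell or macrophage list. The T and NK cell list rested on Nkg7, which averaged 702 CPM in the GMP libraries and stood at 185 CPM in CMP. The filter could thus also leave out cells that resembled GMP, and smaller granulo-monocytic differences after it are to be read with that limit. All 12 highest genes still passed 1.5-fold, at 1.22 to 1.70. Of the 12 lowest, 6 still passed: Ctsg at -2.15, Plac8 at -2.13, Mpo at -1.93, Mt1 at -1.62, Ms4a3 at -1.37 and Elane at -1.36. S100a8 at 0.38, S100a9 at 0.14, Camp at 0.32 and Cd74 at 0.43 turned in direction. These genes belong to the lists by which cells were left out, so the filter itself acted on their levels. The stem cell transcription factors then had 12 of 20 higher and the surface genes 11 of 16. S phase genes had 21 of 27 lower and oxidative phosphorylation genes 18 of 76 lower. Over all 8286 genes compared after the filter, 1466 (17.7%) were higher and 312 (3.77%) lower. Meis1 then differed by 0.74 and Procr by 1.47.

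**Figure D2:**
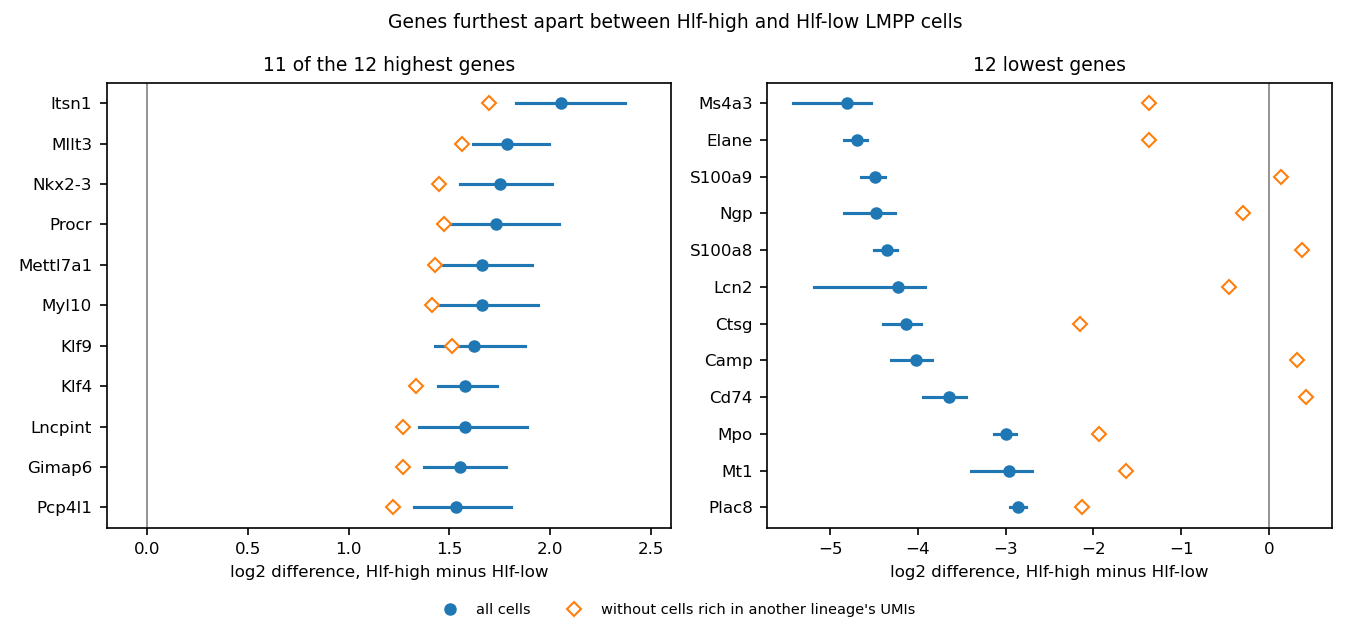
The named genes among the 12 highest, and the 12 lowest genes, by log2 difference between Hlf-high and Hlf-low cells. Filled circles with lines are all cells and the exact 95% counting interval of the plain ratio, and open diamonds leave out the cells rich in another lineage's UMIs. The diamonds stay between 1.22 and 1.70 on the left, while on the right S100a8, S100a9, Camp and Cd74 lie above 0. These genes are on the lists by which cells were left out.

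Other lineage lists were small in both groups. The basophil and mast cell list summed to 6.38 CPM in members and 118 CPM in Hlf-low cells, the macrophage list to 7.51 CPM in members and 37.9 CPM in Hlf-low cells, and the endothelial list to 2.63 CPM in members and 1.80 CPM in Hlf-low cells. The eosinophil list summed to 0.751 CPM in members and 1.97 CPM in Hlf-low cells. The T and NK cell list rested on Nkg7, at 35.9 CPM in members and 180 CPM in Hlf-low cells, and 4 of its 6 genes had no UMI in members. Cpa3, a mast cell carboxypeptidase, stood at 1.88 CPM in members and 36.5 CPM in Hlf-low cells, and Vcam1, carried by marrow macrophages, at 1.502 CPM in members and 20.8 CPM in Hlf-low cells. Among monocyte genes 1 of 5, Klf4, was higher and 3 were lower, and Ccr2, the monocyte chemokine receptor, had 5 UMIs in members and 143 UMIs in Hlf-low cells.

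The erythroid and megakaryocyte lists held genes that moved both ways. Of 10 erythroid genes only 3 could be compared, of which 1 was higher and 1 lower. The erythroid list summed to 690 CPM in members and 398 CPM in Hlf-low cells. Car2, a carbonic anhydrase of red cells that stem cells also carry, was higher at 627 CPM in members and 262 CPM in Hlf-low cells, a difference of 1.26 (1.17 to 1.35). Car1, its erythroid relative, stood at 7.70 CPM in members and 66.7 CPM in Hlf-low cells, a difference of -2.96. Of 5 compared megakaryocyte genes 1 was higher and 1 was lower. The lower gene was Pf4, platelet factor, at 46.2 CPM in members and 113 CPM in Hlf-low cells. The Pf4 difference of -1.28 was -0.22 without the cells rich in another lineage's UMIs, and 98.7% of the Hlf-low Pf4 UMIs lay in 76 of the cells. The median of the megakaryocyte list was 0.25, and -0.01 after centring. With no minimum level, 1 of its 10 genes was higher and 5 were lower. The median was then -0.64, beside 0.24 over all genes.

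Among inhibitors of E proteins, which steer lymphoid fate, Id1 was higher at 18.2 CPM in members and 9.18 CPM in Hlf-low cells, a difference of 0.92 (0.50 to 1.49). Id2 was lower at 4.32 CPM in members and 25.6 CPM in Hlf-low cells, a difference of -2.32, and stood at -0.20 without the cells rich in another lineage's UMIs. The E protein genes Tcf4 at 0.49 and Tcf12 at 0.51 did not pass 1.5-fold.

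The cells without Dntt and Mki67 were also split into 4 equal bins of the score, of which the lowest is the Hlf-low and the highest the Hlf-high group. All 12 highest genes rose over every bin, and Procr stood at 24.9, 57.5, 73.0 and 84.9 CPM from the lowest to the highest bin. Meis1 stood at 170, 259, 298 and 342 CPM in the same order, and Cdk6 at 258, 164, 137 and 129 CPM. Of the 1885 higher genes 1427 (75.7%) rose over every bin, and of the 453 lower genes 342 (75.5%) fell over every bin. Of the 12 lowest genes 6 fell over every bin. Elane stood at 2384, 96.8, 89.4 and 91.1 CPM, so that nearly all of its difference lay between the lowest bin and the next. Set against all other cells without Dntt and Mki67 instead, 12 stem cell list genes were past 1.5-fold, with Procr at 0.71 and Meis1 under it at 0.50. None of the 16 immediate early genes and none of the 7 MHC class I genes then passed, and 3 of 76 oxidative phosphorylation genes were lower. S phase genes had 18 of 27 lower in that comparison. Over all 8445 genes compared in it, 358 (4.24%) were higher and 165 (1.95%) lower.

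**Figure D3:**
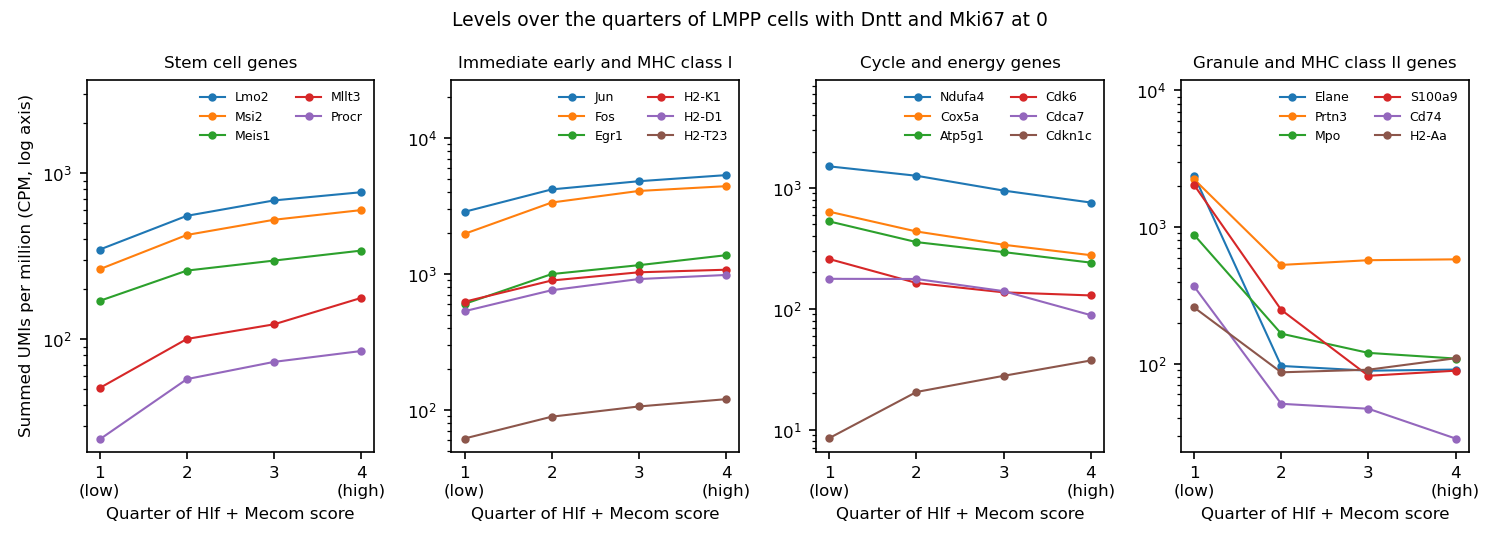
CPM (log axis) of selected genes in the 4 equal bins of the Hlf and Mecom score, from the Hlf-low cells (1) to the Hlf-high cells (4), among LMPP cells with Dntt and Mki67 at 0. Stem cell, immediate early and class I genes rise over every bin, Ndufa4, Cox5a, Atp5g1 and Cdk6 fall, and Elane drops between bins 1 and 2.

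Per cell, the members were more often positive for the stem cell genes at equal depth. Each cell was thinned to 4000 UMIs, which left 677 members and 715 Hlf-low cells and left out 82 members and 45 Hlf-low cells as too shallow. Meis1 was then seen in 67.8% of members (exact 95% interval 64.1% to 71.3%) and 47.1% of Hlf-low cells (43.4% to 50.9%), against 80.5% and 62.6% unthinned. Procr was seen in 29.4% of members (26.0% to 32.98%) and 10.1% of Hlf-low cells (7.96% to 12.5%). Flt3 was seen in 43.3% of members and 25.5% of Hlf-low cells, against 57.7% and 40.4% unthinned. For a rough reference on free RNA, 94 of the 101 LMPP cells with 50 or more neutrophil UMIs were deep enough. The median of all 101 was 13153 UMIs. The 94 cells gave 12.8% for Meis1, 4.26% for Procr and 4.26% for Flt3. Members and Hlf-low cells both stood above these shares for each of the 3 genes. Whether the 94 cells made these transcripts themselves was not tested. Slamf1 was seen in 1.33% of members and 1.68% of Hlf-low cells, and Vwf in 0.886% of members and 0.699% of Hlf-low cells. The 94 cells could not resolve shares this low, since a count of 0 there allows up to 3.19%. That limit was 0.443% for members and 0.420% for Hlf-low cells.

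At the same depth, 5 stem cell genes were counted per cell. The genes Meis1, Procr, Mllt3, Nkx2-3 and Angpt1 were picked after their higher levels in members were seen, so the count restates those levels per cell and does not show that the genes occur together beyond their single shares. Of the 5, at least 3 were seen in 47.9% of members and 15.4% of Hlf-low cells. At least 4 were seen in 18.5% of members and 2.80% of Hlf-low cells. All 5 were seen in 24 members and in 2 Hlf-low cells, and none of the 5 in 23 members and 163 Hlf-low cells. The groups overlapped widely, since 2 genes were seen in 31.8% of members and 26.9% of Hlf-low cells.

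**Figure D4:**
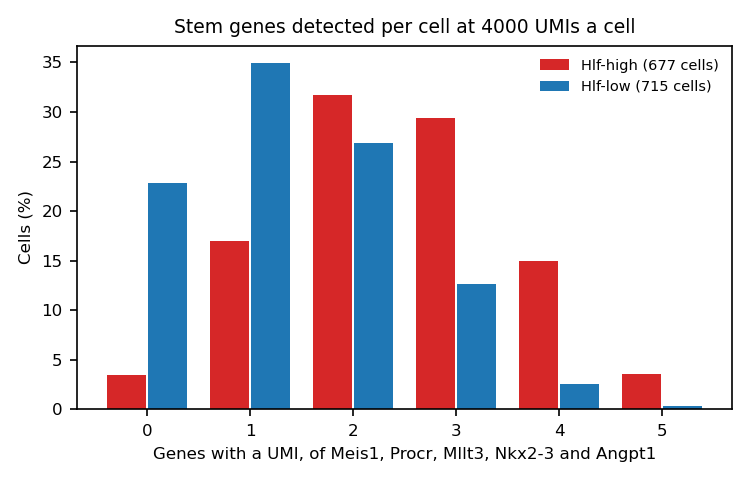
Percent of cells by the number of 5 stem cell genes seen per cell, after thinning to 4000 UMIs, in Hlf-high (left bars) and Hlf-low (right bars) cells. Members peak at 2 genes (31.8%) and Hlf-low cells at 1 gene (35.0%), and the distributions overlap.

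The members varied among themselves. Hlf ranged from 3.84 to 43.2 UMIs per 10000 over members, with a median of 14.0. Meis1 had a median of 2.73 and a 95th percentile of 8.52 UMIs per 10000, and Fos a median of 35.0 with a range from 0 to 178. Thinned members with a Procr UMI (199 cells) were set beside those with none (478 cells). Their Hlf levels were alike, at 1497 CPM with Procr and 1475 CPM without, a difference of 0.02 (-0.08 to 0.12). Meis1 stood at 384 CPM with Procr and 291 CPM without, a difference of 0.40 (0.19 to 0.60), and Cdk6 at 93.0 CPM with Procr and 134 CPM without, a difference of -0.52 (-0.92 to -0.15). Neither passed 1.5-fold. Flt3 differed by 0.10 (-0.22 to 0.41), an interval that includes 0.

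Cells outside the group also reached the members' score, mostly in LMPP. Among LMPP cells with Dntt or Mki67 UMIs, 485 of 4998 (9.70%) did, beside the 759 members. The 4998 cells were deeper than the members, with a median of 11843 UMIs. In CMP 23 of 7312 cells (0.315%) did, and in the GMP libraries 1, 1 and 0 cells did. None of the 101 LMPP cells with 50 or more neutrophil UMIs reached it, which allows a share of up to 2.97%.

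The same rule was applied to CMP, a library that the choice of the members had not used. There 642 cells were Hlf-high, from a score of 2.04 upwards with a median of 3.99, and 1424 cells (55.5% of those without Dntt and Mki67) had neither gene and formed the Hlf-low group. Scores of the CMP cells were thus far under those of the LMPP members. Of 7549 genes compared in CMP, 819 (10.8%) were higher and 194 (2.57%) lower, with a median difference of 0.11. Of the 1416 genes higher in LMPP and compared in CMP, 537 (37.9%) were higher there and 3 were lower. From the other side, 67.2% of the 799 genes higher in CMP and compared in LMPP were also higher in LMPP. Of the 419 genes lower in LMPP, 87 (20.8%) were lower in CMP and 4 were higher, and 56.1% of the 155 genes lower in CMP were lower in LMPP.

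Among the 12 highest genes, 11 passed 1.5-fold in the CMP cells as well. Procr stood at 32.1 CPM in Hlf-high and 2.39 CPM in Hlf-low CMP cells, a difference of 3.28. Nkx2-3 stood at 40.4 CPM in Hlf-high and 3.93 CPM in Hlf-low CMP cells, and Myl10 at 107 CPM in Hlf-high and 10.9 CPM in Hlf-low CMP cells. Meis1 differed by 1.07 and Flt3 by 1.19 in CMP. Stem cell transcription factors had 10 of 18 higher and surface genes 11 of 14, with 0 lower in either list. Immediate early genes had 5 of 16 higher, with a median of 0.28 against 0.96 in LMPP, and oxidative phosphorylation genes had 0 of 76 lower or higher, with a median of -0.16 against -0.51 in LMPP. The difference between the libraries was not tested, since each has 1 library and the cells differ in score.

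Set against the GMP libraries, all 12 highest genes stood above each of the 3, and 9 of the 12 lowest stood below each. Over 102 named genes the members were above every GMP library in 56 and below every one in 44. The named genes were chosen in part for their differences between Hlf-high and Hlf-low cells. The share over all genes is not given, so none of these counts sets the named genes apart from other genes. Meis1 stood at 342 CPM in members and averaged 10.2 ± 1.60 CPM in GMP (SD, n = 3). Flt3 stood at 157 CPM in members, 127 CPM in all other LMPP cells, 48.7 CPM in CMP and 4.73, 4.56 and 4.02 CPM in the GMP libraries. Elane stood at 91.1 CPM in members and averaged 11725 ± 1148 CPM in GMP (SD, n = 3). Mpo stood at 110 CPM in members, 548 CPM in all other LMPP cells, 1892 CPM in CMP and 7542, 6341 and 8117 CPM in the GMP libraries. The members are 1 group from 1 library, so an exact permutation test against 3 libraries could not go below p = 0.25 and none is given.

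**Figure D5:**
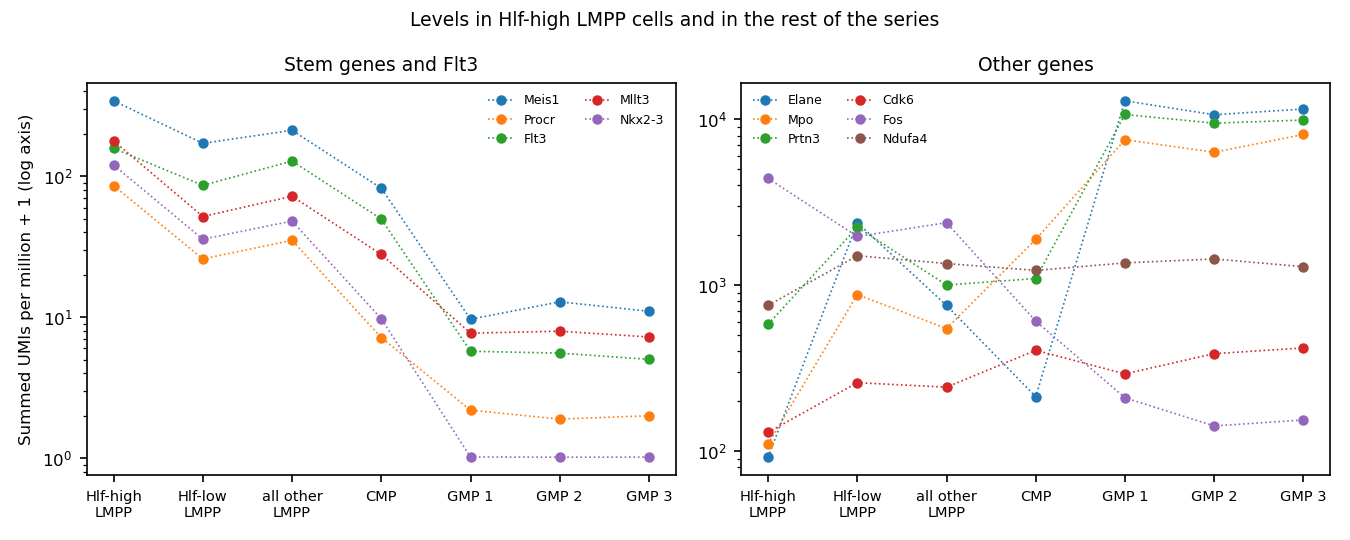
CPM plus 1 (log axis) in Hlf-high LMPP cells, Hlf-low LMPP cells, all other LMPP cells (all but the members), CMP and the 3 GMP libraries. Dotted lines only join the points of a gene. Meis1, Procr, Flt3, Mllt3 and Nkx2-3 are highest in Hlf-high cells, and Elane, Mpo and Prtn3 are highest in GMP.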

How the data were processed

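Single-cell RNA libraries were made with the 10x 3′ kit, per the labels. The deposited matrices hold raw UMI counts per gene and barcode. Cell Ranger 3.1.0, Seurat 3.1.1 and mm10 are named in the submitters' processing notes, and Cell Ranger 6.1.1 is named per the file headers. Barcodes were filtered as given above, which removed 83 of 8116 LMPP barcodes. UMIs past these filters summed to 93658475 in LMPP, 89989982 in CMP and 112036820, 136957978 and 127171211 in the GMP libraries, so counting precision was limited mainly by the size of the 2 small groups.

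The members and the gene lists were chosen with earlier results of these data known. Counts were summed over cells, scaled to CPM and compared as log2 differences with 1 CPM added. Genes averaging under 10 CPM over both groups were not compared, and Hlf, Mecom, Dntt and Mki67 were left out of every count. Intervals are exact (conditional binomial for ratios, Clopper-Pearson for shares), PCR and capture error are not covered, and the limit for a count of 0 is 3 counts of the total. Named genes were the markers, sorted antigens and PAR bZIP genes, the 12 highest and 12 lowest differences among genes averaging 50 CPM or more, and for each list the 2 with the largest change and the 2 with the highest level. Predicted and mitochondrial genes were left out of the 12. Some named genes are not reported here by name but remain in every count except that of stem cell genes seen together per cell. Doublets stayed in, and calls from simulated doublets at 0.8% per 1000 barcodes (522 in LMPP) were removed as an alternative. Barcodes also found in another library numbered 82 in LMPP. No cells were clustered. Promoters came from RefSeq tables of GRCm38.p6. The summing and comparing steps were tested on simulated data. Python 3.11.15, numpy 2.4.6, scipy 1.17.1, pandas 2.3.3, scikit-learn 1.9.0 and matplotlib 3.10.9 were used. Alternatives covered scaling, level minimum, fold, depth, score, cell choice, doublets, shared barcodes and cells of other lineages.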

Additional observations from a re-analysis of the deposited data

Results flagged for a closer look

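H2-Aa, an MHC class II chain, went in opposite directions in the LMPP and CMP libraries. It stood at 110 CPM in Hlf-high and 259 CPM in Hlf-low LMPP cells, a difference of -1.23. Over the 4 bins of the LMPP score H2-Aa stood at 259, 87.0, 90.9 and 110 CPM, so only the lowest bin stood above the members. Of the MHC class II list UMIs in Hlf-low LMPP cells, 93.2% lay in the 76 cells richest in that list. For members that share was 44.6%. In CMP H2-Aa stood at 35.1 CPM in Hlf-high and 8.47 CPM in Hlf-low cells, a difference of 1.93 that rested on 164 and 99 UMIs. Without the cells rich in another lineage's UMIs the LMPP difference was 1.02, but H2-Aa is itself on the MHC class II list by which cells were left out. The difference between the libraries was not tested, since each had 1 library.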

How the results depend on the processing

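In the main comparison 1885 of 8283 genes (22.8%) were higher and 453 (5.47%) lower, with 28 and 0 in the stem cell lists. Centring on the median gave 758 (9.15%) and 1000 (12.1%). No minimum level gave 4266 (20.2%) and 1211 (5.72%) of 21157 genes, with 1 stem cell list gene lower. A 2-fold limit gave 359 (4.33%) and 134 (1.62%), with 16 stem cell list genes higher. The highest and lowest 10% gave 3190 (38.9%) and 808 (9.85%) of 8204 genes. Mecom alone as score gave 722 (8.68%) and 140 (1.68%) of 8314 genes. All other cells without Dntt and Mki67 gave 358 (4.24%) and 165 (1.95%) of 8445 genes, with 12 stem cell list genes higher. In CMP, cells with any Hlf or Mecom UMI against cells with none gave 328 higher and 114 lower, against 819 (10.8%) and 194 (2.57%). The number of genes compared in that CMP alternative is not given, so its shares are not known here. Leaving out each GMP library in turn kept the members above every GMP library in 56 to 57 named genes and below in 44.

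Of 79 named genes called, 13 turned in direction under at least 1 alternative, in 20 cases. Leaving out cells with 2 or more UMIs of another lineage kept 68 Hlf-high and 127 Hlf-low cells. Of 7783 genes then compared, 2456 (31.6%) were higher and 802 (10.3%) lower. That setting turned Cd74 (0.21), Dbp (-0.95), H2-Aa (1.33), Hk2 (0.14), Mcpt8 (1.71), Pf4 (0.026), S100a8 (0.73) and S100a9 (0.27). Leaving out cells over the median S and G2M share turned Pf4 (0.68). The following were chosen after seeing the data. Leaving out cells with many UMIs of another lineage turned Camp (0.32), Cd74 (0.43), H2-Aa (1.02), H2-Eb1 (0.83), S100a8 (0.38) and S100a9 (0.14), which are all on the lists that the filter used. Cells with a Flt3 UMI turned Camp (0.35). Cells with no UMI of Elane, Ctsg or Ms4a3 turned F13a1 (0.76), Mcpt8 (0.94), Mt1 (0.080) and Prtn3 (0.27), with 1 stem cell list gene lower. The causes were not tested. At 2000 UMIs per cell, also added later, Procr was seen in 16.3% of members and 6.69% of Hlf-low cells. Removing doublet calls left 79 and removing shared barcodes 78 of the 79 past 1.5-fold. No paired analysis was possible because the LMPP and CMP populations have 1 library each and no test was made.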
